A study of Mus musculus with 6 samples.

Results

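The leptin receptor gene Lepr, its neighbour Leprot, the related gene Leprotl1, the hormone gene Lep and the signalling genes Jak2, Stat3, Socs3 and Ptpn1 were examined probe by probe in mouse renal cortex. The members were all non-control probes whose gene name in the scanner output was 1 of these 8 symbols, which gave 19 of the 56470 probes kept on the array, 6 of them for Lepr. The 8 genes are 8 of 27454 with a symbol among these probes. The study asked how Huangqi Decoction (HQD), an extract of several medicinal herbs, acts on the kidney of db/db mice, a model of type 2 diabetes. RNA of the renal cortex was measured on 6 Agilent arrays of 1 colour, 3 with the label db/m and 3 with the label db/db, all from male mice aged 16 weeks. The db/db strain was C57BLKS/J homozygous for the db allele of Lepr, a whole-body mutation and not a deletion in 1 cell type, and db/m mice carry 1 copy of it.

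The labels and the study's description do not give the same groups. The labels name a db/m control and a db/db model group, whereas the description speaks of db/db mice treated with HQD for 8 weeks, and no sample label names HQD, its vehicle carboxymethylcellulose or a dose. The groups are therefore called by their labels throughout, every difference is the mean of labelled db/m less that of labelled db/db, and genotype and treatment cannot be told apart. By the methods, the cortex came from 6 mice, as many as there are arrays, all described as db/db, so each array stands for 1 mouse.

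Leptin is a hormone of fat cells that reports the size of the fat stores to the brain, and it also reaches the kidney, where the proximal tubule takes it up from the filtrate. Its receptor is made in several splice forms that share the outer part. The long form has a tail that, through the bound kinase JAK2, activates the transcription factor STAT3. SOCS3, which STAT3 induces, and the phosphatase encoded by Ptpn1 (PTP1B) damp this signal. The db allele is a point mutation that changes splicing of the long form, so a probe for shared exons can give signal in either genotype and does not by itself check the labels.

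The Lepr probes lie at different places along the gene, and the probes that matter for what follows are printed 5′ to 3′ as they stand on the array, with mm9 coordinates on the plus strand of chromosome 4. In the first, which spans an intron, the capitals mark the coding sequence from its start codon. The second lies in coding sequence for the outer part of the receptor, and the third in the coding sequence just after the membrane span. The fourth, of Leprot, is shown because this gene lies just upstream of Lepr and served as a comparison within the locus.

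Lepr A_55_P2621144, chr4:101390100-101400665: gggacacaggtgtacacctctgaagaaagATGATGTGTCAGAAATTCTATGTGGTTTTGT
Lepr A_55_P2177910, chr4:101452666-101452725: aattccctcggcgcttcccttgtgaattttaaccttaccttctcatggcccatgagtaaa
Lepr A_55_P2177911, chr4:101464615-101464674: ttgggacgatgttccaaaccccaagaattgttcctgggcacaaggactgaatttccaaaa
Leprot A_66_P113335, chr4:101328752-101328811: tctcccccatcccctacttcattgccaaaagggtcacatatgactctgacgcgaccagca

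Levels are log2 intensities relative to each array's 75th percentile, so 0 is the 75th percentile of that array, and a level can be compared between arrays for 1 probe but not between probes. Between 51.6% and 59.0% of probes were well above background on an array, which is the scanner software's own call, and no probe was saturated. The tests took only probes with such signal in all 3 samples of 1 label or both, which left 29890 probes. Over all tested probes, labelled db/m replicate 2 had a Pearson r of 0.9917 with labelled db/db replicate 3, above its r with the arrays of its own label (0.9816 and 0.9876) and above those of labelled db/db replicate 3 with its own (0.987 and 0.9879). For several member probes and list genes below, values without 1 or both of these arrays are given. All 6 proximal tubule genes and all 5 podocyte genes examined were well above background on every array. So were all 4 markers of thick limb and distal tubule, all 4 of collecting duct, all 3 of liver and 5 of 8 of adipocytes. This call therefore cannot tell cortex from other parts of the kidney. The summed level of the 8 immune cell markers was 40.2 to 61.6 times the 75th percentile in labelled db/m and 28.3 to 36.2 times in labelled db/db. Of the 8, 4 (Itgam, Ptprc, Adgre1 and Lyz2) were higher in labelled db/m at an unadjusted p under 0.05 in limma's test. Over all tested genes 15.6% were called, 6.1% of them all being higher. None of the 4 passed an adjusted p under 0.05 (0.24 or above), and the groups of Lyz2 overlapped. In such bulk tissue, fewer cells of a type and less RNA per cell cannot be told apart, and the part of the immune signal in the results below was not tested.

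The receptor gene gave the most uneven picture of the members. Of its 6 probes, 1 was well above background on all 6 arrays, 3 on some and 2 on none, and the arrays that were high differed from probe to probe. The probe in the coding sequence for the outer part, A_55_P2177910 (transcript variant NM_010704), was at 1.38, 1.60 and 1.18 in labelled db/m replicates 1, 2 and 3 and at 0.60, 0.64 and 1.65 in labelled db/db replicates 1, 2 and 3. Labelled db/db replicates 1 and 2 were thus the lowest arrays and labelled db/db replicate 3 the highest, so that the groups overlapped. The mean was 1.39 ± 0.21 (SD, n = 3) in labelled db/m and 0.97 ± 0.59 (SD, n = 3) in labelled db/db, a difference of 0.42 (SE 0.29) that did not pass limma's test (unadjusted p = 0.197, adjusted p = 0.447). This value turned on 1 array. Without labelled db/db replicate 3 it was 0.76 (unadjusted p = 0.00303, adjusted p = 0.094 in limma's test). That array was the highest on this probe, so leaving it out could only raise the difference. Without any other single array the difference was 0.24 to 0.53. With slide added to the model, where it rests on 1 array a label of the shared slide, it was -0.27.

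The probes toward the 3′ end separated the arrays in another way. The probe just after the membrane span, A_55_P2177911, was at -3.32, -5.93 and -3.04 in labelled db/m replicates 1, 2 and 3 and at -6.01, -5.97 and -4.92 in labelled db/db replicates 1, 2 and 3. It was well above background only in labelled db/m replicates 1 and 3. The probe of transcript variant NM_001122899, A_55_P2506350 (chr4:101486122-101486181), had raw intensities of 372, 38.4 and 380 in the labelled db/m replicates and of 74.2, 44.5 and 69.7 in the labelled db/db replicates. On the log2 scale these were -1.47, -4.32 and -1.33 against -3.60, -4.29 and -3.76. Labelled db/m replicate 2 lay with the labelled db/db arrays on both probes, while replicates 1 and 3 stood above all other arrays.

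Neither of these 3′ probes met the rule for testing, since no label had all 3 arrays above background. When all probes were fitted regardless of signal, A_55_P2177911 differed by 1.54 (SE 0.80, adjusted p = 0.61) and A_55_P2506350 by 1.51 (SE 0.81, adjusted p = 0.616) in limma's test. Without labelled db/m replicate 2, chosen here for its level on these probes, the difference on A_55_P2506350 was 2.48. With labelled db/db replicate 3 left out as well it was 2.54. Both are given as a description of uncertain size, since labelled db/db replicate 2 was not well above background on this probe. For A_55_P2177911 no such value is given, since no labelled db/db array was well above background. On the slide that held both labels, labelled db/m replicate 1 was above labelled db/db replicate 3 by 2.29 on A_55_P2506350 and was below it on the outer-part probe, with a difference of -0.27. A test of the difference between Lepr probes within arrays needs 2 probes measured on all 6 arrays, and there was 1.

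**Figure D1:**
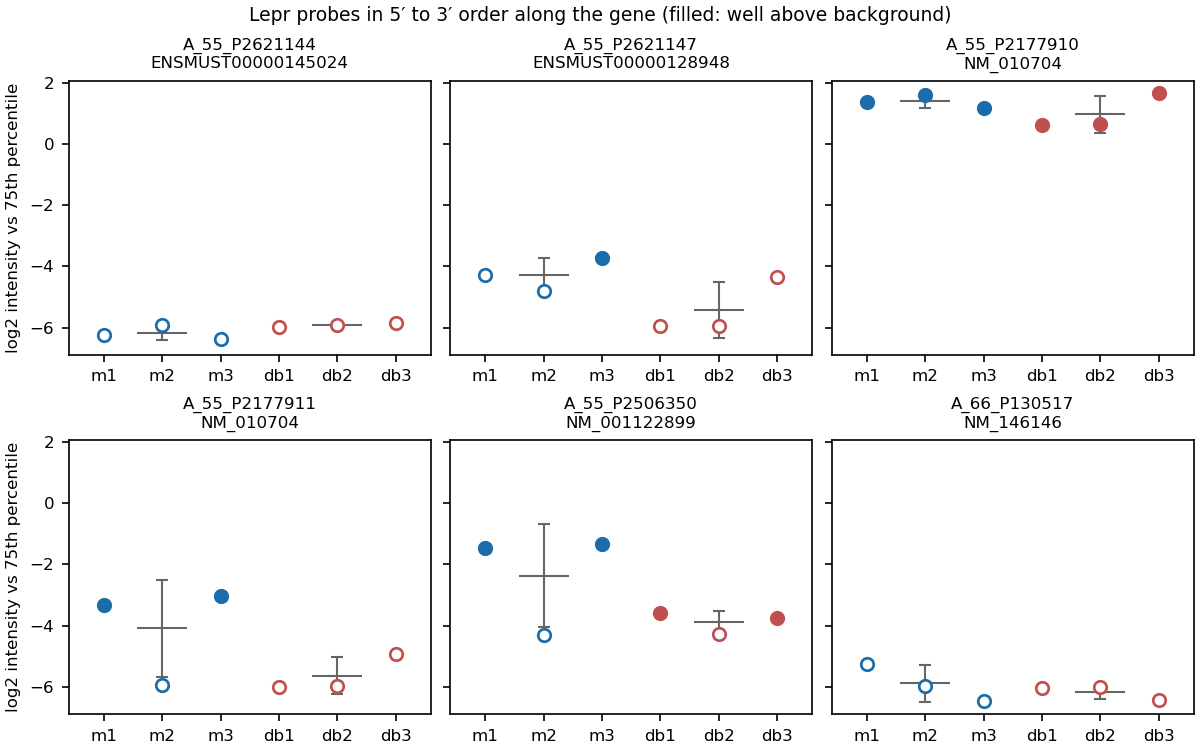
Log2 intensity relative to the array's 75th percentile (y axis) of the 6 Lepr probes on each array (x axis: m1 to m3, labelled db/m in blue; db1 to db3, labelled db/db in red), in 5′ to 3′ order. Filled points were well above background, and grey bars give the mean ± SD of 3 arrays; m1 and m3 stand above the rest on A_55_P2177911 and A_55_P2506350, and db1 and db2 are lowest on A_55_P2177910.

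The remaining Lepr probes stayed near background. A_55_P2621147 (chr4:101452079-101452138, designed to ENSMUST00000128948) was at -4.28, -4.81 and -3.73 in labelled db/m and at -5.95, -5.95 and -4.36 in labelled db/db, and was well above background in labelled db/m replicate 3 alone. The first probe of the gene, which holds the start codon, ranged from -6.37 to -5.85 and was well above background on no array. The probe of the long form, A_66_P130517 (chr4:101487858-101487917, NM_146146), ranged from -6.45 to -5.26 and was likewise not well above background on any array. The splice form that carries the signalling tail was therefore not measured here by its own probe, and no level or fold can be given for it.

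Leprot encodes a small membrane protein that limits the amount of leptin receptor at the cell surface. Its probe A_66_P113335 was at 0.59, 0.68 and 0.68 in labelled db/m and at 0.53, 0.59 and 1.08 in labelled db/db, where replicate 3 was again the highest of the 6 arrays. The difference was -0.08 (SE 0.16, adjusted p = 0.794 in limma's test), and it was 0.09 without that array and -0.49 (unadjusted p = 0.0434) with slide in the model, where that array stands for its label. The other Leprot probe, A_55_P1980583 (chr4:101331774-101331833), lay between 3.51 and 3.69 on all 6 arrays, with a difference of -0.04 (SE 0.10). Leprotl1, its relative, had 1 probe, A_52_P496655 (chr8:35199309-35199368), at -0.20, -0.59 and -0.46 in labelled db/m and at -0.32, -0.23 and -0.38 in labelled db/db. The groups overlapped on all 3 probes.

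Lep itself was well above background on all 6 arrays. Its probe A_66_P113053 (chr6:29020910-29020969) was at -0.95, -0.45 and -0.69 in labelled db/m replicates 1, 2 and 3 and at -1.13, -1.10 and -0.47 in labelled db/db replicates 1, 2 and 3. Labelled db/m replicate 2 together with labelled db/db replicate 3, the pair that resembled each other over all probes, were the highest, and the difference was 0.20 (SE 0.22, adjusted p = 0.624 in limma's test). It was 0.08 without labelled db/m replicate 2, 0.42 (unadjusted p = 0.0534 in limma's test) without labelled db/db replicate 3 and 0.29 without both. Of 8 adipocyte markers, Adipoq and Cfd were well above background on no array and Plin1 on 3, and 1 of the 5 tested markers (Fabp4, 0.63) had an unadjusted p under 0.05. The summed adipocyte marker level was 7.72 to 13.6 times the 75th percentile in labelled db/m and 7.04 to 7.84 times in labelled db/db. Within each label it was lowest in the array where Lep was highest. Fabp4, with the largest share of this sum, was lowest there too, at 2.56 in labelled db/m and 2.40 in labelled db/db. Cidec went the other way and was highest there within each label, at -2.49 and -2.34. Retn, Plin4, Pparg and the untested Plin1 followed neither order. The part of fat cells in the Lep values was not tested.

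Jak2, the kinase bound to the receptor, had the only tested member probe whose groups did not overlap. The probe A_66_P106863 (chr19:29386381-29386440) was at -0.43, -0.66 and -0.63 in labelled db/m and at 0.09, -0.10 and -0.28 in labelled db/db, so every labelled db/m array was lower. The difference was -0.48 (SE 0.14), with an unadjusted p of 0.0106 and an adjusted p of 0.24 in limma's test, and with slide added to the model it was -0.15 (unadjusted p = 0.486). A second Jak2 probe, A_52_P309376 (chr19:29363211-29363270), was well above background on 2 of 3 labelled db/m arrays and on no labelled db/db array. It lay between -3.94 and -3.91 in labelled db/m and between -4.48 and -3.86 in labelled db/db, so the groups overlapped near background and no direction was read from it.

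Stat3, the transcription factor downstream of JAK2, had 3 probes. A_51_P201480 (chr11:100749598-100749657) was at 2.86, 3.10 and 2.94 in labelled db/m and at 2.94, 3.06 and 2.87 in labelled db/db, a difference of 0.01 (SE 0.12). A_55_P1991219 (chr11:100759946-100760005) ranged from -3.03 to -2.96 in labelled db/m and from -3.36 to -2.88 in labelled db/db, and its difference was 0.06 (SE 0.15). A_52_P569499 (chr11:100746462-100746521) was well above background on 1 array and was not tested.

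The genes that damp the signal differed in opposite directions, without passing the test. Socs3 (A_51_P474459, chr11:117827480-117827539) was at -0.42, -1.02 and -0.84 in labelled db/m and at -0.94, -1.18 and -1.04 in labelled db/db. Labelled db/m replicates 1 and 3 were the highest arrays, and the difference was 0.29 (SE 0.17, adjusted p = 0.385 in limma's test). It was 0.12 without labelled db/m replicate 1, 0.42 (unadjusted p = 0.0492) without labelled db/m replicate 2, 0.62 (unadjusted p = 0.0375) with slide in the model and 0.11 with median centring. Ptpn1 had 2 tested probes. A_51_P241705 (chr2:167802296-167802355) was at 3.61, 4.17 and 3.83 against 4.26, 4.16 and 3.92, and A_52_P516021 (chr2:167804295-167804354) at 0.29, 0.75 and 0.45 against 0.94, 0.94 and 0.64. Both were lower in labelled db/m, by means of -0.25 (SE 0.17, adjusted p = 0.454) and -0.34 (SE 0.16, adjusted p = 0.309) in limma's test, and on both labelled db/m replicate 2 came within the labelled db/db range. Without labelled db/m replicate 2 these differences were -0.39 and -0.47, with unadjusted p of 0.0461 and 0.0223 in limma's test, and without labelled db/m replicate 1 they were -0.12 and -0.24. The second was -0.44 (unadjusted p = 0.0382) without labelled db/db replicate 3 and -0.53 (unadjusted p = 0.0265) with median centring, and the first -0.13 with quantile normalization and -0.43 with median centring. The third Ptpn1 probe, A_55_P2714551 (chr2:167776663-167776722), was well above background on no array.

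**Figure D2:**
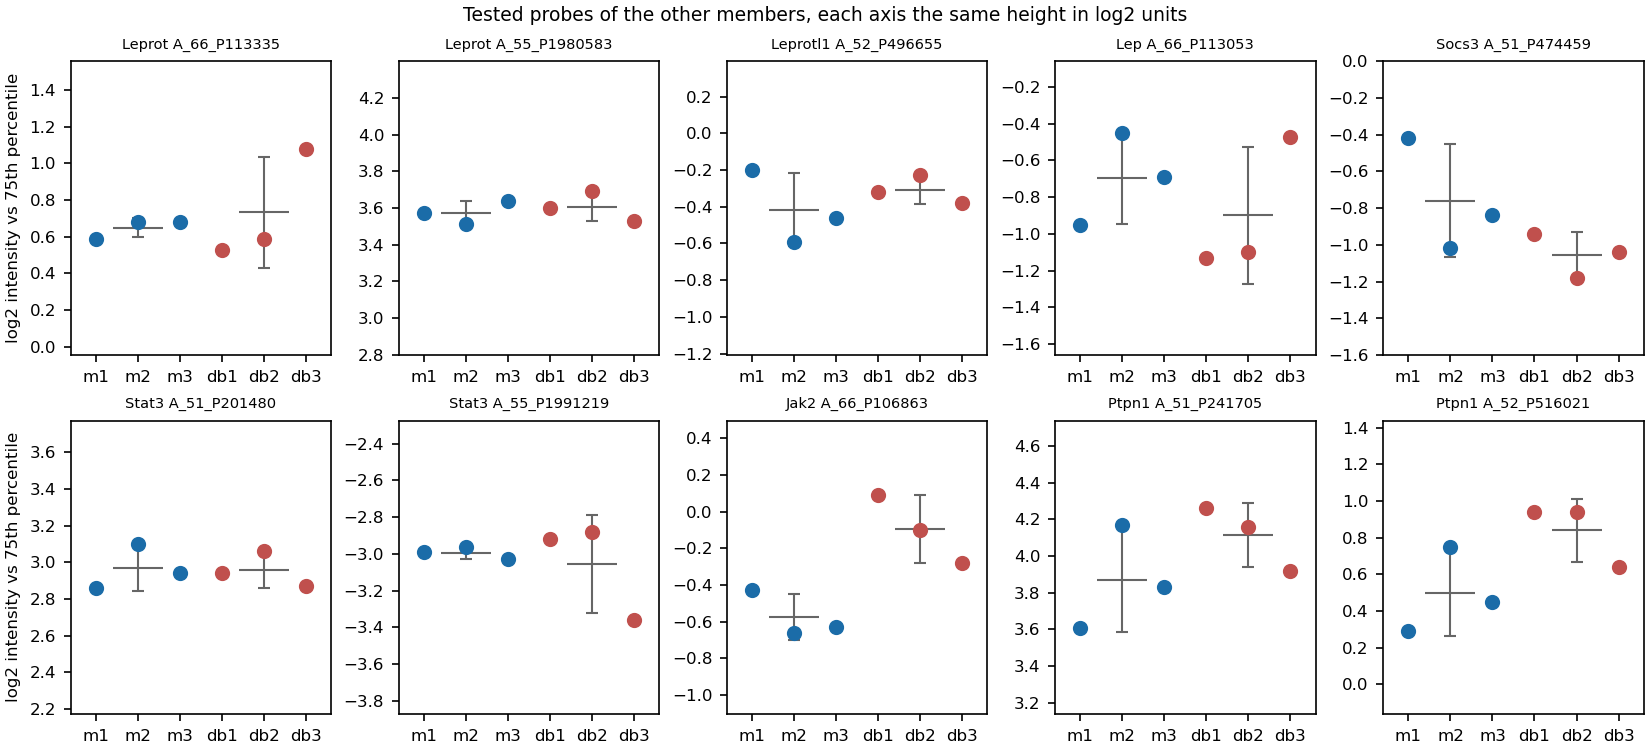
Log2 intensity relative to the array's 75th percentile (y axis, the same height in every panel) of the 10 tested probes other than Lepr on each array (x axis: m1 to m3, labelled db/m in blue; db1 to db3, labelled db/db in red), with the mean ± SD of 3 arrays in grey. The groups are apart only for Jak2 A_66_P106863, with all labelled db/m arrays at -0.43 or lower and all labelled db/db arrays at -0.28 or higher.

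Over the 19 member probes, 11 were tested, each of the 8 genes having at least 1. The other 8 did not meet the rule for testing, 5 of them being well above background on some arrays and 3 on none. At an unadjusted p under 0.05, 1 of 11 was called (Jak2), beside 17.7% of all 29890 tested probes, of which 10.8% were lower, as Jak2 was, and 6.9% higher. Groups that did not overlap were found for 1 of 11, beside 24.1% of all tested probes, 16.4% lower and 7.75% higher. None of the members passed an adjusted p under 0.05 in limma's test, beside 0% of all probes, and none met the screen of a log2 difference of at least 1 with an unadjusted p under 0.05, beside 0.96%. The median difference of the tested member probes was -0.04, with 5 higher and 6 lower in labelled db/m and a range of -0.48 to 0.42, and the median of all tested probes was -0.03.

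The genes around Lepr were examined because alleles of linked genes travel with the db allele. Upstream of the receptor gene, Jak1 (A_52_P106463, chr4:100825094-100825153), a kinase of related cytokine receptors, was at 3.38, 3.64 and 3.59 in labelled db/m and at 3.66, 3.93 and 3.68 in labelled db/db. Every labelled db/m array was lower, with a difference of -0.22 (SE 0.13) that had an unadjusted p of 0.134 in limma's test. Pde4b, a phosphodiesterase gene on the other side, had 3 tested probes with differences of -0.17 to -0.39, none with an unadjusted p under 0.05. Of 37 tested probes of 20 neighbouring genes, 4 had an unadjusted p under 0.05, beside 17.7% of all tested probes, and 7 had groups that did not overlap, beside 24.1%. The 4 were Alg6 (0.49), Mier1 (0.36) and Wdr78 (0.27), higher in labelled db/m, and Pgm1 (-0.34), lower, and all 4 were among the 7. Wdr78 did not pass with median centring (0.08) or with slide in the model (0.36), nor without labelled db/m replicate 1 or 3 or labelled db/db replicate 1 or 3 (0.24 to 0.27). For Alg6, Mier1 and Pgm1 no such alternatives are given. Pgm1 is printed on the array under the name Pgm2. Other tested probes of Alg6 and Mier1 had differences of 0.05 to 0.09 and of -0.02 to 0.35.

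Within 1 Mb on each side of the Lepr probe measured on all arrays, none of 10 tested genes, each taken by its brightest probe, had an unadjusted p under 0.05 in limma's test, beside 15.6% of all 16460 tested genes. By probe, 2 of 26 there did, both without a gene symbol. Within 10 Mb, 18 of 114 genes did (15.8%), 4 higher and 14 lower in labelled db/m. The median size of the difference was 0.20 there and 0.19 over all tested genes, so the share and the size near Lepr were close to those of the whole array.

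**Figure D3:**
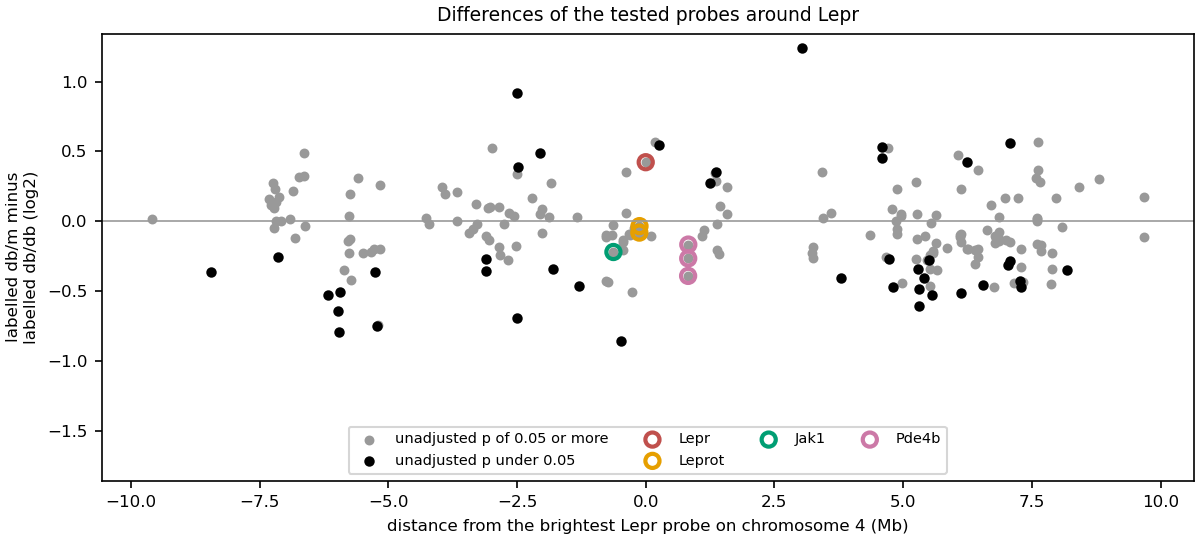
Difference between labels (y axis, labelled db/m minus labelled db/db, log2) of the 221 tested probes within 10 Mb of the Lepr probe measured on all arrays, by distance from it (x axis, Mb). Black points had an unadjusted p under 0.05 and circles mark Lepr, Leprot, Jak1 and Pde4b, none of whose probes is black.

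The wider pathway was described by 5 lists of 85 genes, of which 83 were tested by their brightest probe and 8 had an unadjusted p under 0.05 in limma's test, beside 15.6% of all tested genes (6.1% higher and 9.5% lower). All 8 had adjusted p of 0.24 or above and groups that did not overlap. Called or not, groups did not overlap for 4 of 27 leptin receptor signalling genes, 5 of 16 inhibitors and 5 of 26 STAT3 targets. For related receptors it was 1 of 11 and for leptin uptake genes 0 of 4, beside 22.9% of all tested genes (7.15% higher and 15.7% lower). Among 28 other genes of leptin receptor signalling, 27 were tested and 2 were called, both lower in labelled db/m. Pik3r2, a regulatory subunit of phosphoinositide 3-kinase, was at 2.52, 2.71 and 2.41 in labelled db/m and at 2.98, 3.02 and 2.79 in labelled db/db, a difference of -0.38 (SE 0.13, unadjusted p = 0.0208). Pde3b, a phosphodiesterase that acts downstream of this kinase, was at 0.76, 1.04 and 0.73 against 1.24, 1.15 and 1.14, a difference of -0.33 (SE 0.12). Both calls were lost, with differences of -0.28 to -0.37, without labelled db/m replicate 1 or 3 or labelled db/db replicate 1 or 2, and that of Pde3b also without labelled db/db replicate 3 (-0.35, unadjusted p = 0.0513). With slide in the model neither passed (-0.27 for Pik3r2 and -0.38 for Pde3b). With all probes fitted regardless of signal, Pde3b did not pass (-0.33, unadjusted p = 0.0563 in limma's test). The median of the list was -0.05, and that of all tested genes -0.04. Sh2b1 (-0.21), an adaptor of JAK2, Ptpn11 (0.02), the phosphatase SHP2, Irs1 (0.22) and Irs2 (-0.13) did not pass at this threshold.

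Among 16 inhibitors of cytokine receptor signalling, all tested, 2 were called, both higher in labelled db/m and both of the SOCS family. Socs5 was at 0.36, 0.23 and 0.37 in labelled db/m and at -0.16, -0.28 and -0.38 in labelled db/db, so that the groups were well apart, with a difference of 0.59 (SE 0.11, unadjusted p = 0.00121, adjusted p = 0.24 in limma's test). Its unadjusted p stayed under 0.05 in every alternative run, the slide block and each left-out array included. Socs1 was at -2.62, -2.81 and -2.44 against -2.85, -3.08 and -3.00, a difference of 0.35 (SE 0.14, unadjusted p = 0.0366), a call that was lost under most alternatives. The difference was 0.10 with normexp background correction, 0.16 with median centring, 0.19 with quantile normalization and with the deposited values, and 0.37 with slide in the model, none of which passed. The call was also lost without labelled db/m replicate 1 (0.35) or 3 (0.26) and without labelled db/db replicate 2 (0.30) or 3 (0.34). It was lost too with all probes fitted regardless of signal, with trend and robust variance and in the methods' t-test, each at 0.35. Socs2, Socs4, Socs6 and Socs7 had differences between -0.09 and 0.04. Cish, a SOCS family member induced by STAT5, was at 2.93 in labelled db/m replicate 1 and between 1.43 and 1.71 on the other 5 arrays. The immune markers given above were higher in labelled db/m too, and their part in the SOCS values was not tested.

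Of 27 STAT3 target genes, 26 were tested and 3 were called, all lower in labelled db/m. They were the 3 fibrinogen chains, which form the clotting protein made chiefly by the liver in the acute phase. Fgb was at -2.83, -2.57 and -2.88 in labelled db/m and at -1.39, -1.81 and -1.98 in labelled db/db, a difference of -1.03 (SE 0.18, unadjusted p = 0.000824). Fgg was at 1.36, 1.86 and 1.27 against 2.55, 2.79 and 2.36, a difference of -1.06 (SE 0.19), and Fga was lower by a mean difference of -0.68 (SE 0.22). Fgb and Fgg kept an unadjusted p under 0.05 in every alternative run, whereas Fga did not without labelled db/m replicate 3 (-0.48) or labelled db/db replicate 1 (-0.59) or 3 (-0.62), with slide in the model (-0.71) or in the methods' t-test. Of the other acute-phase genes of the list, Hp had a difference of 0.86 (SE 0.45), Lcn2 of 0.50 (SE 0.34) and Saa1 of -0.05 (SE 0.18), none past the threshold, and Saa3 was well above background on no array. The median of the list was 0.06. The 3 liver markers Alb, Apoa2 and Ttr had differences of -0.26, -0.23 and -0.32, none with an unadjusted p under 0.05, and summed to 10.7 to 12.5 times the 75th percentile in labelled db/m and 11.6 to 15.2 times in labelled db/db. The part of liver RNA in the fibrinogen values was not tested.

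Among 11 related receptors, all tested, Ghr, the growth hormone receptor, was lower in labelled db/m. It was at 4.47, 4.65 and 4.42 against 4.90, 5.04 and 4.73, a difference of -0.38 (SE 0.13, unadjusted p = 0.0227), a call lost without labelled db/m replicate 1 or 3 or labelled db/db replicate 1 or 2, where it was -0.30 to -0.37, and also with slide in the model (-0.26), quantile normalization (-0.22) and the deposited values (-0.21). Il6st, the shared signalling chain of the interleukin 6 family, differed by -0.02, and Lifr by 0.26. Of the 4 genes through which the proximal tubule takes up filtered leptin and other proteins, none was called. Their differences were all below 0, at -0.27 for Lrp2 (megalin), -0.16 for Cubn (cubilin), -0.37 for Amn and -0.47 for Dab2, with a median of -0.32. The 6 proximal tubule markers, which include Lrp2 and Cubn, had a median of -0.31 and summed to 700 to 990 times the 75th percentile in labelled db/m and 888 to 1042 times in labelled db/db.

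**Figure D4:**
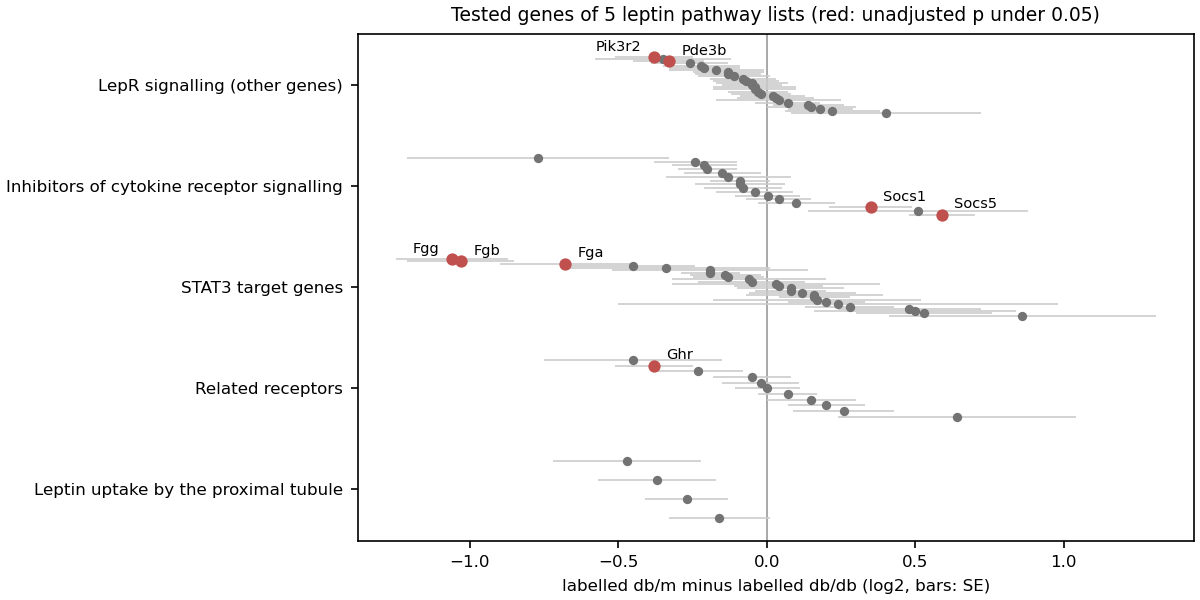
Difference between labels (x axis, labelled db/m minus labelled db/db, log2, with SE bars) of the tested genes of 5 leptin pathway lists (y axis), each gene by its brightest probe. Red points had an unadjusted p under 0.05: the named 8 genes, of which Socs5 and Socs1 lie above 0 and the other 6 below.

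The tested probes most like the outer-part Lepr probe over the 6 arrays were those of Cfap54 (Pearson r = 0.9998), A730046J19Rik (0.9991), Thsd4 (0.9987), 5430400D12Rik (0.9964) and Tdg (0.9946). With 6 points and 25754 probes with a symbol compared, 656 reached r of at least 0.9 and 16 at least 0.99, so these values describe the order of the arrays only.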

How the data were processed

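The authors hybridised total RNA of renal cortex to one-colour Agilent arrays, and the deposited files hold scanner intensities (Agilent Feature Extraction 10.7.1.1, per the labels, coordinates in mm9). The intensities used are background-subtracted and detrended by that software. The deposited value table holds log2 values that the authors quantile-normalized, as its shared sorted values show, and was an alternative only. Here, outlier spots were left out, spots of a probe were averaged, log2 processed signals were centred on each array's 75th percentile, and 29890 probes were fitted with limma 3.58.1 in R 4.3.3 (lmFit, eBayes; Benjamini-Hochberg over all tested probes; no covariate). The code was tested on simulated data. Gene symbols came from the files and from RefSeq by accession (32994 probes matched).

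Named were every member probe, Jak1 and Pde4b, list genes and neighbours with an unadjusted p under 0.05 and groups that do not overlap, and the 5 probes most correlated with the Lepr probe measured on all arrays. Cish, Hp, Lcn2 and further list genes were named after their values were seen. Another neighbour that the rule names is not reported here. Members and lists were chosen with earlier results of these data known. Alternatives were quantile normalization, median centring, normexp (offset 50), the value table, other filters on dim probes, the methods' t-test without moderation, trend and robust variance, slide and replicate blocks, and leaving out arrays.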

Additional observations from a re-analysis of the deposited data

How the results depend on the processing

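Only 3 arrays a label limit the precision, and dim probes have only a bound. Label and slide largely coincide, since only slide 1 held both labels. Median centring shifted the median of all differences from -0.03 to -0.21, so its counts are relative to that shift. Under it, 2 member probes, 14 list genes and 28 genes within 10 Mb had an unadjusted p under 0.05, against 1, 8 and 18 in the main setting. Leaving out 1 array at a time gave 1 to 6 member probes, 4 to 23 list genes and 5 to 27 genes within 10 Mb, and between 0 and 222 probes of the whole array past an adjusted p under 0.05, against 0. The lowest list count came without labelled db/m replicate 1 or 3 or labelled db/db replicate 2, and the highest without labelled db/m replicate 2. Without the pair of labelled db/m replicate 2 with labelled db/db replicate 3, chosen after seeing the data, the counts were 6, 21 and 30. In both counts of 6, Lepr A_55_P2177911 and A_55_P2506350 are included, which met the rule for testing only because the labelled db/m array low on them was left out.

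Deviations of same-numbered arrays correlated at 0.354, 0.148 and 0.046, and those of arrays with different numbers at -0.337 to 0.149. These values do not settle whether the replicate numbers pair the arrays, and the main fit used no pairing. With the number as a block, 15 list genes were called, and 1 member probe as before. With the slide as a block, the Jak2 call was lost and 2 other member probes were called, Leprot A_66_P113335 and Socs3. The Lepr probe A_55_P2177910 (0.42) gave -0.27 with the slide block, from 0.24 to 0.76 on leaving out 1 array, the highest without labelled db/db replicate 3, and 0.66 without the pair.

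Small differences changed sign. Lep gave -0.49 and Leprotl1 0.18 with the slide block. Leprot A_55_P1980583 gave 0.08 with quantile normalization and with the value table, 0.04 with the slide block and -0.07 to 0.01 on leaving out 1 array, the highest without labelled db/db replicate 2. Leprot A_66_P113335 gave 0.09 without labelled db/db replicate 3 and 0.08 without the pair. Stat3 A_51_P201480 gave -0.18 with median centring, -0.01 with the slide block, -0.06, -0.001 and -0.03 without labelled db/m replicate 2, labelled db/db replicate 1 or labelled db/db replicate 3 (range over single arrays -0.06 to 0.06), and -0.10 without the pair. Stat3 A_55_P1991219 gave -0.11 with quantile normalization and the value table, -0.12 with median centring, -0.05 with normexp, -0.09 to 0.15 on leaving out 1 array, the lowest without labelled db/db replicate 3, and -0.11 without the pair. The cause was not tested. Of the other values, 154 probe values kept direction and side of the threshold, and 34 counts stayed within 1.5 times the main count. The comparison of Lepr probes within arrays was not run, as 1 such probe was measured on all 6 arrays.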
